A study of Rhodotorula toruloides with 36 samples.

Results

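Head-to-head gene pairs are neighbours that point away from each other, so that the stretch between their 5′ ends lies upstream of both. In the gene catalogue of Rhodotorula toruloides strain IFO0880 (assembly Rhoto_IFO0880_4), adjacent mRNAs were sorted by scaffold and start. A pair was taken where the left mRNA is on the minus strand, the right mRNA is on the plus strand, and 0 to 300 bases lie between them without overlap. The rule found 1210 such pairs among 8469 adjacent pairs (14.3%), and they hold 2420 of the 8490 annotated genes (28.5%). The rule used positions and strands only, not expression. The unit described is the pair, and each gene belongs to at most 1 head-to-head pair, although the same gene can also form a same-strand or tail-to-tail pair with its neighbour on the other side.

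In fungi with compact genomes, divergent genes often share a region upstream of both, in which the start sites of both transcripts, regulatory DNA and open chromatin lie close together. A factor bound there can act on both genes, and some divergent pairs, such as histone genes or the GAL1 and GAL10 genes of Saccharomyces cerevisiae, are known to be regulated together, whereas others are controlled separately. Same-strand neighbours lie with the end of the upstream gene before the start of the downstream gene, and tail-to-tail neighbours share no upstream region. R. toruloides is a red basidiomycete yeast that accumulates lipid when nitrogen is short, and neither the catalogue nor the gene table used here pairs its mRNA numbers with gene names or functions. The genes are therefore given by mRNA number and position, and no role is assigned to any of them.

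RNA was sequenced from cultures labelled as IFO0880 (their titles begin with Rt88, a name the labels do not explain) in 4 media, each at 48, 64 and 88 h with 3 biological replicates: low nitrogen with acetate, low nitrogen without acetate, high nitrogen with acetate and high nitrogen without acetate. Acetate was 2 g/L or 0 g/L, low nitrogen was 0.1 g/L ammonium sulfate with 0.75 g/L yeast extract, and high nitrogen was 5 g/L ammonium sulfate per the treatment protocol and 10 g/L per the design text. All cultures came from 3 colonies first grown in glucose medium, each colony's pellet being spread over 4 flasks. Which colony a replicate came from, and whether 1 flask was sampled at all 3 times, is not stated in the labels, so the p-values measure the spread between these libraries, which may be partly technical. The flasks so described are fewer than the libraries, so libraries of different times may share a flask. The main tests treated all libraries as independent. The carbon source of the sampled cultures is not given in the labels.

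The 36 libraries held between 10173719 and 63311529 counts, with a median of 24769400, and the head-to-head genes took between 23.1% and 27.1% of each library. Levels are given as CPM, the counts of a gene relative to the library total, scaled by TMM factors, which correct the library totals for a few very abundant transcripts. Both genes had enough counts to be tested in 1188 pairs, and all later counts and medians are over those pairs. In the other 22 pairs, 20 had 1 gene and 2 had both genes below the filter, and those 24 genes had between 8 and 187 counts summed over all libraries. There were 4 libraries that stood apart, differing from both other replicates by more than 3-fold the difference between those (by the chi-square of their counts over its degrees of freedom). In low nitrogen this was replicate 1 without acetate at 64 h. In high nitrogen it was replicate 3 with acetate at 48 h, and, without acetate, the second replicate of the 64 h group and that of the 88 h group. Without these 4 libraries the median partner correlation described next was 0.381, against 0.370 with them.

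The gap between the partners' mRNA ends was short in most pairs. Its median was 67.5 bases, with quartiles at 5 and 151 bases, and 547 pairs had a gap of 0 to 50 bases, 192 of over 50 and up to 100, 278 of over 100 and up to 200 and 193 of over 200 and up to 300 bases. The annotated mRNAs met with no base between them in 248 pairs (20.5%), of which 244 had an annotated 5′ UTR on both genes. These are ends drawn by the gene prediction, not mapped start sites, so a gap of 0 is where the annotated UTRs meet and not the length of a promoter. The distance between the coding parts, which does not depend on the UTR annotation, had a median of 279 bases with quartiles at 169 and 414 bases and a range of 27 to 924 bases. Around the longest gap of the rule, 17 pairs had 290 to 300 bases and 16 divergent pairs just outside it had gaps over 300 and up to 310 bases. A 5′ UTR was annotated on both partners in 632 pairs, on 1 partner in 433 and on neither in 145. Member genes resembled the catalogue in size, with a median coding length of 1238 bases against 1218 bases for all genes.

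Partners were expressed at more alike levels than other pairs of genes. Per kilobase of exon, the median absolute log2 ratio between partners was 1.33, a 2.52-fold difference, against 1.64 for same-strand neighbours with the same range of gaps, 1.68 for tail-to-tail neighbours and 1.87 for every possible pair of tested genes. Partners lay within 2-fold of each other in 478 pairs (40.2%), against 33.7% of same-strand neighbours and 29.0% of all possible pairs. At the other end, 71 pairs (5.98%) differed more than 32-fold. Single members were neither strongly nor weakly expressed as a group. Their median level was 49.7 CPM, against 49.6 CPM for all tested genes, and per kilobase it was 31.0 CPM, against 31.3 CPM. Their levels varied slightly less over the 12 groups, with a median SD of log2 CPM of 0.499, against 0.555 for all tested genes.

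Head-to-head partners varied together across the 12 groups more closely than the other kinds of neighbours. For each pair the Pearson correlation of the partners was taken over the 12 group means of log2 CPM. Its median was 0.370 for head-to-head pairs (quartiles −0.033 and 0.694), against 0.173 for 1815 same-strand pairs (quartiles −0.224 and 0.555), 0.034 for 1502 tail-to-tail pairs and −0.003 for every possible pair of tested genes. A correlation above 0.8 was found in 176 head-to-head pairs (14.8%), against 9.92% of same-strand and 3.06% of tail-to-tail pairs. A correlation below −0.5 was found in 70 head-to-head pairs (5.89%), against 10.5% of same-strand and 14.3% of tail-to-tail pairs. Coupling was thus a shift of the whole distribution, and many pairs showed none: the lower quartile of head-to-head pairs lay at about 0.

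**Figure D1:**
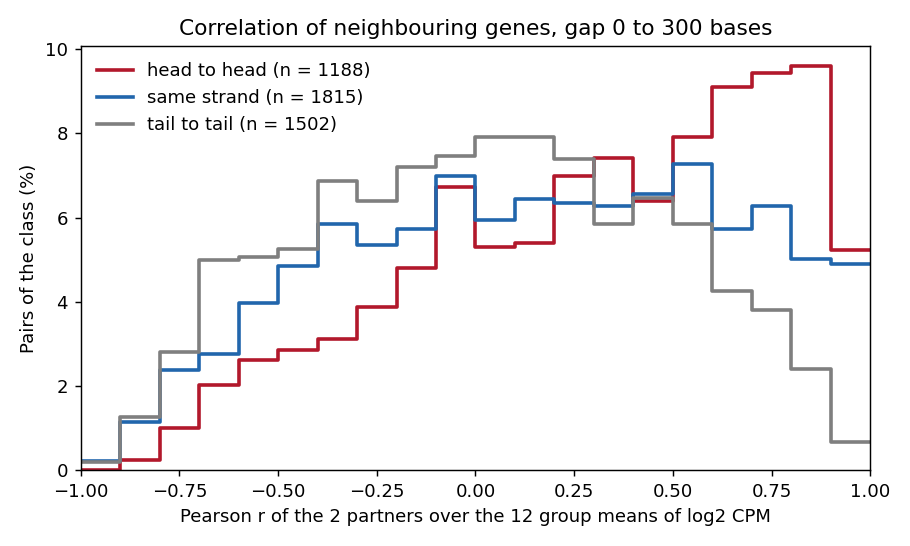
The horizontal axis is the Pearson correlation of the 2 partners over the 12 group means of log2 CPM, in steps of 0.1, and the vertical axis is the percentage of the pairs of each class in each step, for gaps of 0 to 300 bases. The head-to-head curve lies above both others at correlations over 0.5 and below both between −0.9 and −0.2.

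The difference between the classes exceeded the spread between replicates. With the 12 libraries of each replicate number taken alone, the head-to-head median was 0.374, 0.338 and 0.372, against 0.174, 0.184 and 0.177 for same-strand pairs. The difference of medians was 0.197 over the group means and ranged from 0.154 to 0.200 over the replicate numbers (SD 0.025, n = 3). All correlations share the same 12 groups and libraries and are given as a description, without a p-value. With library totals alone in place of TMM, both medians were higher and that of head-to-head pairs was 0.529, the difference of medians then being 0.225. That scaling moves the median log2 fold change of all genes by between −0.54 and 0.19 across the 16 comparisons described below, a shift that all genes share.

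Coupling was closer in low than in high nitrogen. Over the 6 low-nitrogen groups the median correlation of head-to-head partners was 0.483, against 0.287 over the 6 high-nitrogen groups. Same-strand neighbours moved less between the media, with medians of 0.202 in low nitrogen and 0.143 in high nitrogen, and tail-to-tail neighbours stayed near 0, at 0.007 and 0.044. The difference between head-to-head and same-strand medians was 0.281 in low nitrogen and 0.144 in high nitrogen. Each of these correlations rests on 6 points, and the difference between the media was not tested.

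The gap between the mRNA ends did not order the coupling within the range of the rule. The median correlation of head-to-head partners was 0.386 at gaps of up to 50 bases, 0.292 at gaps up to 100, 0.360 at gaps up to 200 and 0.390 at gaps up to 300 bases, each class starting where the one before it ends. It was 0.382 in 376 divergent pairs just beyond the rule, at gaps up to 600 bases, and was lower only further out, with 0.259 at gaps up to 1000 bases and 0.198 beyond 1000 bases. The 245 tested pairs whose mRNAs meet had a median of 0.373, against 0.369 in the 943 pairs with a gap of at least 1 base. Head-to-head medians lay above same-strand medians in each of the 4 gap ranges up to 300 bases, and the closest approach was at 51 to 100 bases, with 0.292 against 0.240.

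The distance between the coding parts did order it over the 12 groups. From 0 to 100 bases between the coding parts upwards, the median correlation was 0.453, then 0.448 up to 200, 0.406 up to 300, 0.360 up to 400, 0.320 up to 600 and 0.161 beyond 600 bases. Over the 6 low-nitrogen groups alone the medians were 0.655 at 0 to 100 bases and 0.334 beyond 600, with the 0.481 of the class ending at 600 above the 0.358 of the class ending at 400. Over the 6 high-nitrogen groups they were 0.384 in the closest and 0.321 in the most distant pairs, with values from 0.249 to 0.304 between, so the series was not seen there. Same-strand neighbours showed no such series: their median was 0.468 in 37 pairs with at most 100 bases between coding parts, above the head-to-head value, and between 0.147 and 0.212 at all longer distances, the last of which also lay above the head-to-head value. The annotation of UTRs went the same way, since the median correlation was 0.536 in pairs with no annotated 5′ UTR, 0.383 with 1 and 0.313 with 2. Same-strand pairs were ordered in the same way by their UTRs, at 0.273, 0.202 and 0.144, so this order was not particular to head-to-head pairs. At a distance of 0 to 200 bases between the coding parts it was 0.541 with no UTR, 0.382 with 1 and 0.387 with 2, and over 200 and up to 300 bases it was 0.514, 0.419 and 0.233. Beyond 300 bases it was 0.373 with 1 and 0.304 with 2. These groupings were chosen after the data were seen. A pair without annotated UTRs cannot have coding parts further apart than the gap allows, so both properties overlap in what they select.

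**Figure D2:**
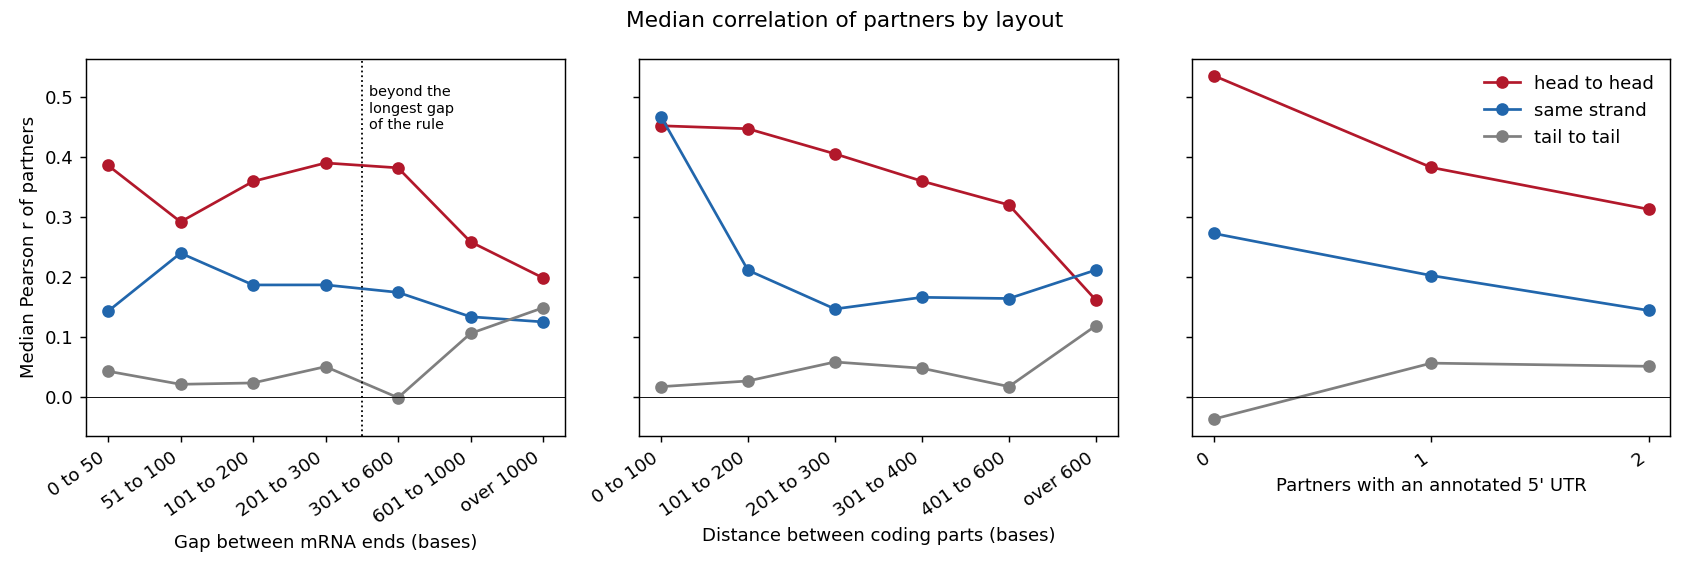
The vertical axis is the median Pearson correlation of partners, and the panels group pairs by the gap between mRNA ends in bases, by the distance between coding parts in bases, and by the number of partners with an annotated 5′ UTR. The last 2 panels hold gaps of 0 to 300 bases. Head-to-head medians stay between 0.292 and 0.390 up to a gap of 600 bases, and step down along the distance between coding parts, with 0.453 in the closest and 0.161 in the most distant class.

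Pairs in which both genes vary widely were the most tightly coupled. Where the less variable partner had an SD of log2 CPM over 1, the median correlation was 0.910 in 30 head-to-head pairs, against 0.746 in 45 same-strand pairs. At an SD of 0.5 to 1 it was 0.598, against 0.378, at 0.25 to 0.5 it was 0.319, against 0.087, and under 0.25 it was 0.183, against 0.017. Tail-to-tail medians followed the same order, at 0.353, 0.060, 0.011 and 0.006, so the order was not particular to head-to-head pairs. The mean level of the lower partner mattered less: the median correlation was 0.386 under 10 CPM, 0.367 at 10 to 50 CPM and 0.362 at 50 to 200 CPM. Over 200 CPM only 19 pairs remained, with a median of 0.235, against 0.403 in 37 same-strand pairs. Within low nitrogen the medians of these pairs were 0.510 head to head and 0.238 on the same strand. Within high nitrogen they were 0.659 and 0.418, so the order over the 12 groups did not hold at either nitrogen level.

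Seen from a single gene, the divergent partner was usually the closer match of the 2 neighbours. For 1437 member genes the neighbour on the other side also lay within 0 to 300 bases without overlap. The partner's correlation was higher than that of the outer neighbour for 925 of them (64.4%), with medians of 0.362 for the partner and 0.060 for the outer neighbour. Where the outer neighbour was on the same strand the share was 59.5% of 519 genes, and where it was tail to tail it was 67.1% of 918 genes. The partners also peaked in the same group more often: the highest of the 12 group means fell in the same group for both partners in 281 pairs (23.7%), against 17.9% of same-strand and 10.9% of tail-to-tail pairs. Among the 338 head-to-head pairs whose less variable partner had an SD of at least 0.5, the share was 30.2%, against 27.0% of such same-strand pairs. In those 102 head-to-head pairs with a shared peak, 19 peaked in low nitrogen with acetate at 48 h and 19 in low nitrogen without acetate at 88 h, whereas 1 peaked in low nitrogen without acetate at 48 h. Peaks per group were counted for head-to-head pairs only, so these numbers are not set against those of other genes.

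The largest numbers of pairs moved in step for nitrogen at 88 h. A gene was called when the adjusted p of edgeR's quasi-likelihood test was below 0.05 and the change was at least 2-fold, and a pair was concordant when both partners were called in the same direction. The cultures were sequenced in bulk, so fewer cells expressing a gene and less RNA per cell cannot be told apart in any of these changes. Without acetate, low nitrogen gave 28 concordant pairs at 48 h, where 14% of all tested genes were called, 98 at 64 h, where 27.2% were called, and 139 at 88 h, where 33.5% were called. Opposite calls were made in 2, 12 and 9 pairs at those times, and calls of a single partner in 165, 344 and 402 pairs. With acetate, the concordant pairs numbered 69 at 48 h (23.2% of all tested genes called), 96 at 64 h (31.5%) and 119 at 88 h (34.2%), and the opposite ones 7, 18 and 23. At each acetate level the counts rose with the share of all genes called. Concordant same-strand pairs were also most frequent for nitrogen at 88 h, with 174 without and 193 with acetate. Tail-to-tail pairs numbered 118 and 99 there, so this order was not particular to head-to-head pairs.

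Concordant falls outnumbered concordant rises late in low nitrogen without acetate. At 88 h without acetate both partners were lower in low nitrogen in 100 pairs and higher in 39, and with library totals alone the split was 202 lower and 17 higher. With TMM factors other neighbours leaned the same way at 88 h, with 109 lower and 65 higher same-strand pairs. Tail-to-tail pairs split into 84 lower and 34 higher, so the lean was not particular to head-to-head pairs. At 64 h without acetate the head-to-head split was 60 lower and 38 higher, or 141 and 21 with library totals. It was 67 and 64 for same-strand and 48 and 22 for tail-to-tail pairs. At 48 h the head-to-head split was 10 lower and 18 higher, or 15 and 16 with library totals. With acetate the split was close to even, with 33 lower and 36 higher pairs at 48 h. At 64 h it was 50 lower and 46 higher, and at 88 h 66 lower and 53 higher, but it was 99 and 25 at 64 h with library totals. In all 6 nitrogen comparisons, 9 pairs were called in the same direction each time, 6 of them higher and 3 lower in low nitrogen, whereas 271 pairs were concordant in at least 1 comparison and 55 opposite in at least 1. Of 1815 same-strand pairs 20 were concordant in all 6, 413 in at least 1, and 175 were opposite in at least 1. Set against the 1188 head-to-head pairs, the share concordant at least once was alike, and the share opposite at least once was lower head to head.

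Acetate moved far fewer pairs in low nitrogen than in high nitrogen. In low nitrogen, acetate gave 8 concordant pairs at 48 h with 10.5% of all tested genes called, 5 at 64 h with 6.17% called and 10 at 88 h with 7.76% called. In high nitrogen it gave 51 at 48 h with 22.9% called, 27 at 64 h with 18.2% called and 57 at 88 h with 27.1% called. Opposite calls were 1, 0 and 1 in low nitrogen and 9, 4 and 21 in high nitrogen. The counts follow the number of genes called at all, which was also lower in low nitrogen, and the difference between the media was not tested pair by pair. In high nitrogen at 88 h both partners rose in 27 pairs and fell in 30, but with library totals alone 7 rose and 100 fell. The counts at 48 h (27 rose and 24 fell) and at 64 h (13 and 14) became 22 and 31, and 10 and 35, under that scaling. In low nitrogen the splits were 3 rises and 5 falls at 48 h, 2 rises and 3 falls at 64 h, then 5 of each at 88 h, and with library totals 6 and 4, 2 and 7, and 5 and 6. Concordant calls in at least 1 of the 6 acetate comparisons were found in 115 of 1188 pairs, and in all 6 in none. Among same-strand pairs the share was higher, with 235 of 1815.

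More pairs were called together over time in low than in high nitrogen. Between 88 and 48 h, concordant pairs in low nitrogen without acetate comprised 76 lower and 25 higher at 88 h (28.2% of all tested genes called), and those with acetate 86 lower and 32 higher (29.6%). In high nitrogen the numbers were 23 without acetate (17.9%) and 47 with acetate (20.6%). These counts follow the share of all genes called. Without and with acetate, concordant same-strand pairs numbered 127 and 140 in low nitrogen, against 49 and 51 in high nitrogen. Tail-to-tail pairs numbered 56 and 73, against 33 and 36, so the order was not particular to head-to-head pairs. With library totals the low-nitrogen splits of head-to-head pairs became 104 lower and 11 higher, and 148 lower and 9 higher. In high nitrogen 6 head-to-head pairs were lower and 17 higher without acetate, and 20 were lower and 27 higher with acetate. With library totals 31 were lower and 22 higher in high nitrogen with acetate. Opposite calls were 12 and 12 in low nitrogen and 5 and 7 in high nitrogen.

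The share of all pairs that was concordant was not generally higher head to head than among same-strand neighbours. It was higher in 5 of the 16 comparisons, among them low nitrogen without acetate at 88 h with 11.7% against 9.59%, and 88 against 48 h in low nitrogen with acetate with 9.93% against 7.71%. It was lower in the other 11, among them all 6 for acetate, for example 4.29% against 6.12% in high nitrogen at 48 h. Fewer head-to-head than same-strand genes were called in each of the 16 comparisons. Of the pairs with any call, the concordant share was higher head to head in 13 comparisons and lower in 3, all of them for acetate.

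Head-to-head partners that were both called went opposite ways less often. The share of opposite calls among pairs with both genes called was lower in head-to-head than in same-strand pairs in 15 of the 16 comparisons. The exception was acetate in low nitrogen at 88 h, with 9.09% of 11 head-to-head pairs against 0% of 22 same-strand pairs. In low nitrogen without acetate at 88 h, for example, it was 6.08% in head-to-head pairs, against 25.6% in same-strand and 38.9% in tail-to-tail pairs. At the upper end stood acetate in high nitrogen at 88 h, with 26.9% of 78 head-to-head pairs, against 27.7% of 137 same-strand pairs. At the same time head-to-head genes were called less often than all tested genes in each of the 16 comparisons, for instance 29.4% against 33.5% for low nitrogen without acetate at 88 h and 6.06% against 10.5% for acetate in low nitrogen at 48 h. The comparisons share libraries, so these 16 counts are not independent of each other.

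**Figure D3:**
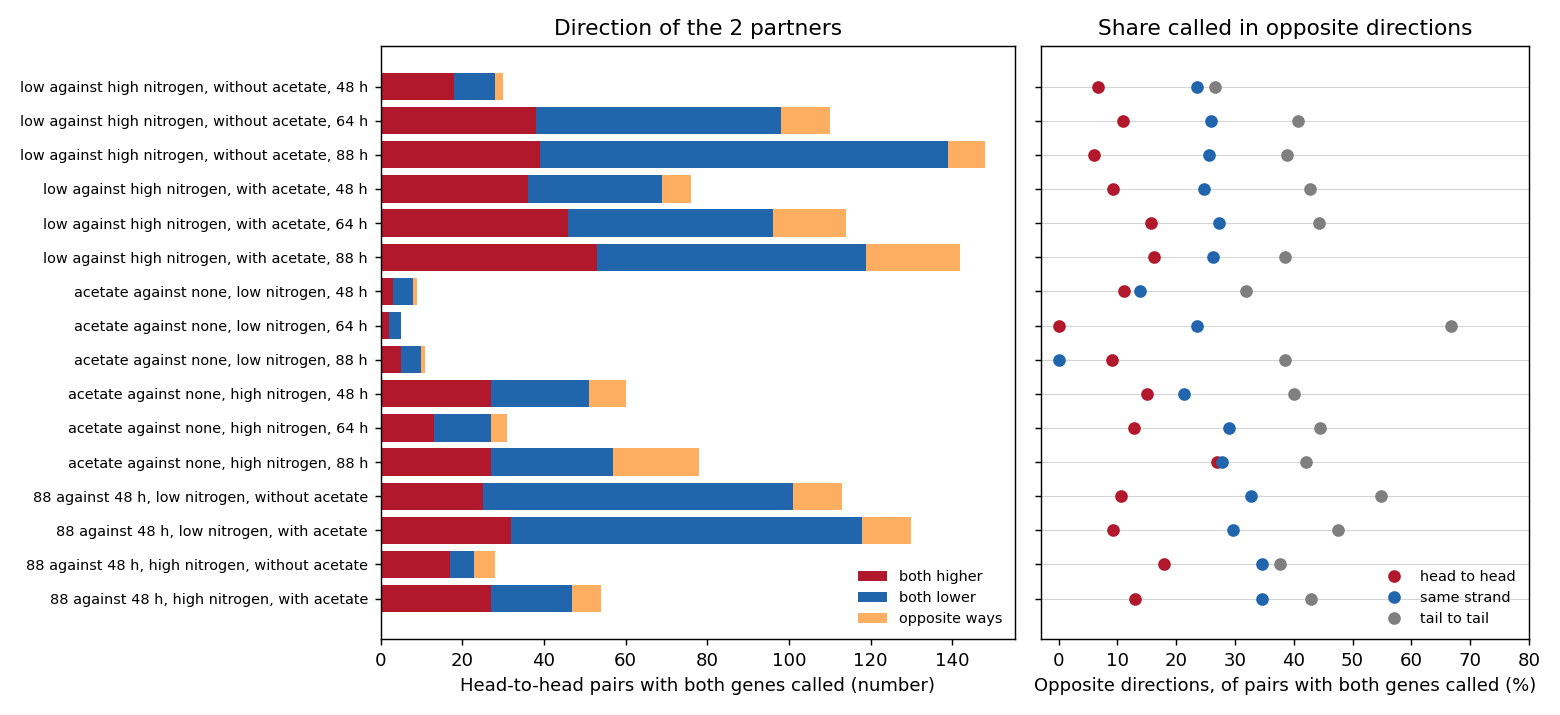
Each row is 1 of the 16 comparisons. Bars in the left panel give the number of head-to-head pairs with both partners called and both higher, both lower or opposite, and points in the right panel give the percentage of opposite directions among pairs with both partners called, by class. The longest bars are those for nitrogen at 88 h, with 148 pairs without and 142 with acetate, and the shortest, 5 pairs, is for acetate in low nitrogen at 64 h, and the head-to-head points lie left of the same-strand points in all rows but acetate in low nitrogen at 88 h.

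In most pairs with a call, only 1 partner was called. For low nitrogen without acetate at 88 h that was so in 402 of 550 pairs with any call, and for acetate in high nitrogen at 48 h in 287 of 347. Same-strand pairs were alike in this, with 748 of 982 and 605 of 746. The ratio of the partners was therefore tested directly, with limma on the difference of their log2 CPM (minus-strand gene minus plus-strand gene) over 8149 adjacent pairs of all kinds. In this test the scaling of a library cancels. For nitrogen at 88 h the ratio changed at least 2-fold in 410 head-to-head pairs without acetate (34.5%), where 44.2% of all adjacent pairs were called. With acetate it changed in 428 (36.0%), where 45.9% were called. For acetate at 48 h it changed in 112 pairs in low nitrogen (9.43%), where 18% of all adjacent pairs were called, and in 296 in high nitrogen (24.9%), where 35% were called. Each head-to-head share was below that of same-strand neighbours, at 44.3%, 46.0%, 18.7% and 35.9%, and of tail-to-tail neighbours, at 50.8%, 51.4%, 24.4% and 39.6%.

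**Figure D4:**
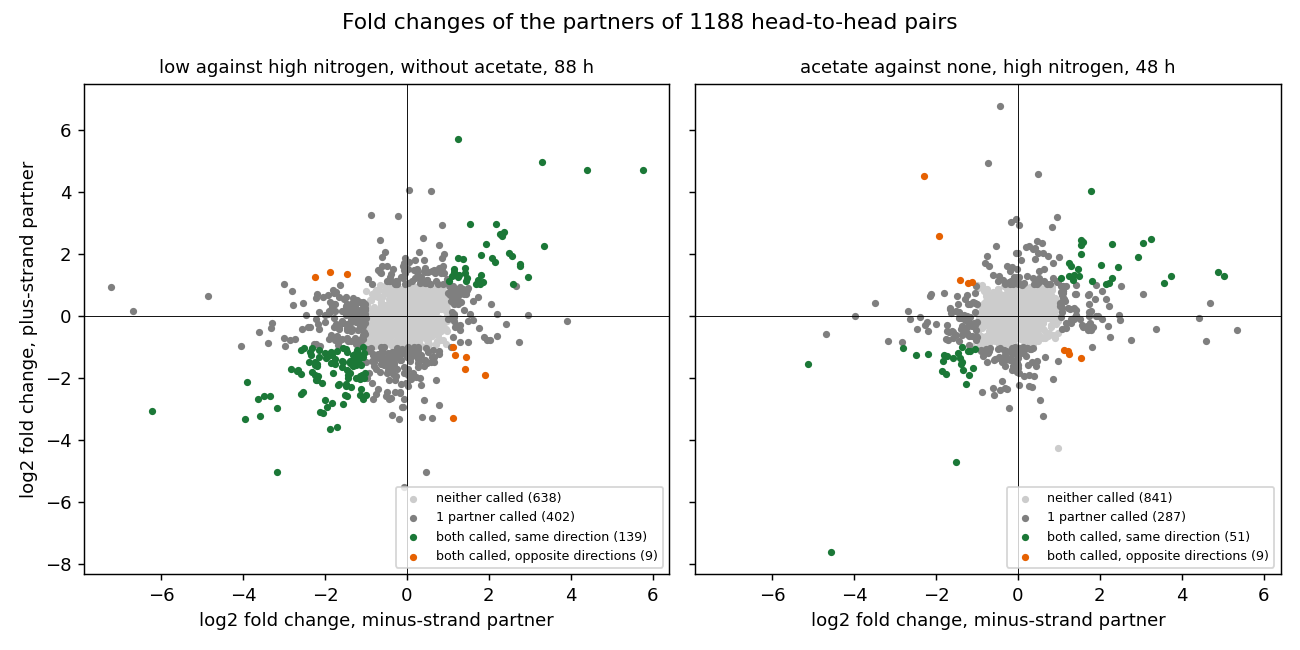
Each point is 1 of the 1188 head-to-head pairs, with the log2 fold change of the minus-strand partner on the horizontal axis and that of the plus-strand partner on the vertical axis, for low against high nitrogen without acetate at 88 h and for acetate against none in high nitrogen at 48 h. The 139 and 51 pairs called in the same direction lie in the lower left and upper right, the 9 and 9 opposite pairs in the other corners, and most pairs with a call lie along an axis.

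The single pairs described next were picked by a rule on these same values from pairs with both genes at a mean of at least 10 CPM, namely the highest and lowest correlations among pairs with both SDs at least 0.5, the highest levels, the largest changes of ratio, the most frequent shared or opposite calls, and the shortest gaps. Their values therefore describe and do not test the class. The rule named 23 pairs, and in 10 of them another annotated gene overlaps a member, so that some reads of that member cannot be assigned with certainty. Besides those marked below these are mRNA_7059 with mRNA_7060, mRNA_5926 with mRNA_5927, mRNA_4846 with mRNA_4847 and mRNA_2581 with mRNA_2582. Positions are in assembly Rhoto_IFO0880_4.

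The closest match was mRNA_2768 and mRNA_2769 on scaffold 15 (170406 to 171341, minus strand, and 171565 to 173214, plus strand), with a gap of 223 bases, no annotated 5′ UTR and a correlation of 0.981. Both were high with acetate in high nitrogen only. At 48 h in high nitrogen mRNA_2768 had 44.4, 32.0 and 16.4 CPM with acetate, against 2.93, 3.13 and 3.80 CPM without, and mRNA_2769 had 189, 134 and 82.6 CPM with acetate, against 24.4, 24.0 and 24.0 CPM without. The third library is the one that stands apart in that group, and in it both partners were lowest. The log2 fold change with acetate was 3.24 ± 0.26 (adjusted p = 3.5e-12) for mRNA_2768 and 2.49 ± 0.22 (adjusted p = 3.7e-11) for mRNA_2769, in edgeR's test. Without the library that stands apart, and the 3 others, these changes were 3.54 and 2.74. At 64 h the changes were 3.13 and 3.04, and at 88 h 2.70 and 2.09. In low nitrogen neither gene was called for acetate at any time, with log2 fold changes between −0.70 and −0.09. The pair was called together in 3 of 6 acetate comparisons, which no pair considered exceeded and 1 other reached. Another annotated gene overlaps a member of this pair.

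A nitrogen-dependent match was mRNA_4649 and mRNA_4650 on scaffold 3 (691959 to 694834 and 694835 to 695671), whose annotated mRNAs meet with a gap of 0 and whose correlation was 0.976. At 88 h without acetate mRNA_4649 had 376, 381 and 333 CPM in low nitrogen, against 35.0, 36.0 and 35.9 CPM in high nitrogen. Its partner mRNA_4650 had 134, 125 and 109 CPM in low nitrogen, against 24.2, 28.0 and 24.8 CPM in high nitrogen. Both rose in all 6 nitrogen comparisons, by 3.35 ± 0.10 (adjusted p = 1.9e-22) and 2.26 ± 0.09 (adjusted p = 1.5e-19) on the log2 scale in this one. The change was unequal, since the log2 ratio of the partners rose by 1.09 (limma, adjusted p = 2.1e-13). Within the 6 low-nitrogen groups the partners correlated at 0.120 only, and within the 6 high-nitrogen groups at 0.878, so the overall value rests largely on the step between the media.

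The other closest matches fell in low nitrogen at late times. mRNA_2186 and mRNA_2187 on scaffold 13 (289914 to 291585 and 291681 to 293421, gap 95 bases) correlated at 0.979, with 0.991 within low and 0.446 within high nitrogen. At 88 h with acetate mRNA_2186 averaged 4.35 ± 0.40 CPM in low nitrogen and 19.5 ± 2.6 CPM in high nitrogen, and mRNA_2187 averaged 6.60 ± 0.57 and 24.4 ± 0.9 CPM (SD, n = 3 each). Both also fell between 88 and 48 h in low nitrogen, by 2.72 and 2.59 on the log2 scale with acetate and by 2.22 and 1.69 without. mRNA_3901 and mRNA_3902 on scaffold 2 (852049 to 854726 and 854772 to 857388, gap 45 bases) correlated at 0.973 with unlike amplitudes, and at 0.980 within low and 0.870 within high nitrogen. At 88 h with acetate mRNA_3901 averaged 15.1 ± 2.5 CPM in low nitrogen and 101.5 ± 7.3 CPM in high nitrogen, whereas mRNA_3902 averaged 71.6 ± 3.6 and 212 ± 3.9 CPM. In log2 terms mRNA_3901 fell by 2.76 and mRNA_3902 fell by 1.57.

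Among the pairs called together in all 6 nitrogen comparisons, the rule took mRNA_2118 and mRNA_2119, whose smaller changes summed highest, on scaffold 13 (114465 to 117427 and 117592 to 119082, gap 164 bases). Both partners were lower in low nitrogen each time. They correlated at 0.912 over the 12 groups, but at −0.469 within low and 0.523 within high nitrogen. The overall value thus rests largely on the step between the media. At 48 h without acetate mRNA_2118 had 4.62, 4.83 and 4.35 CPM in low nitrogen, against 116, 105 and 112 CPM in high nitrogen. mRNA_2119 had 0.661, 0.600 and 0.964 CPM in low nitrogen, against 89.2, 76.2 and 74.2 CPM in high nitrogen. On the log2 scale mRNA_2118 fell by 4.59 ± 0.18 (adjusted p = 9.9e-19) and mRNA_2119 fell by 6.74 ± 0.21 (adjusted p = 1.3e-21). Over time in high nitrogen the plus-strand partner fell further. Without acetate mRNA_2118 averaged 111, 29.1 and 30.2 CPM at 48, 64 and 88 h, and mRNA_2119 79.9, 7.76 and 4.18 CPM. Another annotated gene overlaps a member of this pair.

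Opposed pairs were fewer, and their partners differed most in a few groups. Over all 1188 pairs the lowest correlation was −0.843. Among the pairs considered for naming the lowest, −0.827, was that of mRNA_5309 and mRNA_5310 on scaffold 4 (423093 to 425321 and 425488 to 427440, gap 166 bases). At 88 h in high nitrogen mRNA_5309 had 12.4, 12.5 and 12.2 CPM with acetate, against 51.1, 35.6 and 44.7 CPM without, whereas mRNA_5310 had 183, 182.5 and 179 CPM with acetate, against 49.4, 50.4 and 46.2 CPM without. mRNA_5309 fell by 1.82 ± 0.12 (adjusted p = 1.9e-13) and mRNA_5310 rose by 1.90 ± 0.11 (adjusted p = 2.1e-14) on the log2 scale. Without the 4 libraries that stand apart, 1 of them the second without acetate here, the changes were −1.95 and 1.92. In high nitrogen without acetate the partners, far apart in every other group, reached nearly the same level at 88 h, at 43.8 ± 7.8 CPM and 48.7 ± 2.2 CPM.

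The 3 next lowest correlations, −0.751, −0.720 and −0.717, belonged to mRNA_7484 and mRNA_7485, mRNA_837 and mRNA_838, and mRNA_7059 and mRNA_7060. mRNA_7484 and mRNA_7485 lie on scaffold 8 (392666 to 394281 and 394475 to 397101, gap 193 bases). At 88 h with acetate mRNA_7484 averaged 421 ± 5.4 CPM in low nitrogen and 1351 ± 42 CPM in high nitrogen, while mRNA_7485 averaged 17.8 ± 1.0 and 6.12 ± 0.07 CPM. mRNA_837 and mRNA_838 lie on scaffold 1 (2005491 to 2007588 and 2007602 to 2010845, gap 13 bases). At 64 h with acetate mRNA_837 averaged 104 ± 7.7 CPM in low nitrogen and 40.4 ± 1.2 CPM in high nitrogen, and mRNA_838 averaged 11.0 ± 1.5 and 45.6 ± 0.9 CPM. This opposition held within low nitrogen, where the correlation was −0.894, and not within high nitrogen, where it was −0.017. mRNA_7059 and mRNA_7060 on scaffold 7 (785063 to 786823 and 786976 to 789068, gap 152 bases) moved by 1.12 and −1.49 on the log2 scale for low nitrogen with acetate at 88 h.

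Opposite calls repeated over comparisons were rare. mRNA_7040 and mRNA_7041 on scaffold 7 (732949 to 733430 and 733533 to 735248, gap 102 bases) were called opposite ways in 3 of the 6 nitrogen comparisons, a number that 1 other pair reached. At 88 h with acetate mRNA_7040 had 25.0, 25.4 and 21.5 CPM in low nitrogen, against 7.30, 5.35 and 5.11 CPM in high nitrogen, and mRNA_7041 had 69.9, 83.4 and 84.0 CPM in low nitrogen, against 244, 246 and 244 CPM in high nitrogen. Under library totals alone the count for this pair was 2. Its partners correlated at −0.284 over the 12 groups, at 0.642 within low and at −0.496 within high nitrogen. For acetate, mRNA_4846 and mRNA_4847 on scaffold 3 (1132079 to 1133444 and 1133572 to 1137413, gap 127 bases) were called opposite ways in 2 of 6 comparisons, and in 1 under library totals alone. At 64 h in high nitrogen mRNA_4846 had 38.1, 38.8 and 35.0 CPM with acetate, against 18.6, 10.8 and 18.2 CPM without. mRNA_4847 had 18.5, 17.4 and 21.4 CPM with acetate, against 41.8, 78.2 and 47.2 CPM without. The second library without acetate, which gave the lowest value of mRNA_4846 and the highest of mRNA_4847, is the one that stands apart in its group. Without the 4 such libraries mRNA_4846 changed by 1.02 and mRNA_4847 by −1.22 on the log2 scale, against 1.22 and −1.54 with them, and the count stayed at 2. Over all 12 groups this pair correlated at 0.462, but at −0.852 within low and −0.830 within high nitrogen.

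The largest changes of ratio among the pairs considered came from pairs in which 1 partner switched and the other changed less than 2-fold. mRNA_668 on scaffold 1 (1608955 to 1610932) had 3.21, 2.10 and 1.81 CPM in low nitrogen without acetate at 88 h, against 441, 309 and 269 CPM in high nitrogen. Its partner mRNA_669 (1610985 to 1614295), across a gap of 52 bases, had 958, 991 and 871 CPM in low nitrogen, against 509, 464 and 523 CPM in high nitrogen. The log2 ratio of mRNA_668 to mRNA_669 fell by 8.04 ± 0.47 (limma, adjusted p = 2.7e-15) without acetate and by 6.62 ± 0.47 (adjusted p = 2.4e-13) with acetate, the lowest changes among the pairs considered in both nitrogen tests. mRNA_668 fell in all 6 nitrogen comparisons, and mRNA_669 was called in 1 of them, low nitrogen without acetate at 48 h, where it rose by 1.24 on the log2 scale. The partners correlated at −0.483 over the 12 groups, at −0.241 within low and at 0.448 within high nitrogen.

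In mRNA_4005 and mRNA_4006 on scaffold 2 (1131553 to 1132821 and 1132999 to 1133937, gap 177 bases) the plus-strand partner switched. At 88 h without acetate mRNA_4006 had 3.64, 3.33 and 3.55 CPM in low nitrogen, against 143, 164 and 177 CPM in high nitrogen, while mRNA_4005 had 166, 157 and 136 CPM in low nitrogen, against 174, 139 and 165 CPM in high nitrogen. The log2 ratio of mRNA_4005 to mRNA_4006 rose by 5.43 ± 0.26 (limma, adjusted p = 3.5e-17), and by 5.32 without the 4 libraries that stand apart. With acetate the largest rise of a ratio was that of mRNA_2324 to mRNA_2325 on scaffold 13 (611549 to 613080 and 613315 to 614433, gap 234 bases), by 6.91 ± 0.47 (adjusted p = 9.3e-14). At 88 h with acetate mRNA_2325 had 0.765, 1.02 and 0.696 CPM in low nitrogen, against 123, 136 and 130 CPM in high nitrogen, and mRNA_2324 had 62.0, 54.4 and 50.5 CPM in low nitrogen, against 63.6, 69.1 and 68.7 CPM in high nitrogen. Over the 12 groups mRNA_4005 and mRNA_4006 correlated at 0.459, but at 0.958 within low and 0.860 within high nitrogen. mRNA_2324 and mRNA_2325 correlated at −0.005, but at 0.522 within low and 0.890 within high nitrogen. In both pairs the switching gene's libraries did not overlap between the media. Another annotated gene overlaps a member of each of these pairs.

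Acetate split pairs in the same way. On scaffold 16 mRNA_3101 (321680 to 325653) and mRNA_3102 (325654 to 328451) meet with a gap of 0 bases, yet at 48 h mRNA_3102 alone was called for acetate. At 48 h in high nitrogen mRNA_3102 had 2159, 2336 and 3750 CPM with acetate, against 89.7, 84.2 and 98.2 CPM without. mRNA_3101 had 413, 400.01 and 409 CPM with acetate, against 666, 656 and 718 CPM without. The log2 ratio of mRNA_3101 to mRNA_3102 fell by 5.62 ± 0.16 (limma, adjusted p = 4.1e-22), the lowest change for acetate in high nitrogen among the pairs considered. It fell by 5.37 without the 4 libraries that stand apart, among them the third with acetate. At 88 h mRNA_3102 had 1452, 1536 and 1590.5 CPM with acetate in low nitrogen, but 100.7, 79.2 and 70.5 CPM with acetate in high nitrogen, close to the 63.5, 75.4 and 68.7 CPM without acetate there. In another pair it was the minus-strand partner that switched, mRNA_6332 on scaffold 6 (566530 to 568812), across a gap of 143 bases from mRNA_6333 (568956 to 573677). It had 118, 87.2 and 83.7 CPM with acetate in high nitrogen at 48 h, against 1.67, 2.57 and 2.92 CPM without, while mRNA_6333 had 103, 95.0 and 107 CPM with acetate, against 145, 153 and 120 CPM without. That log2 ratio rose by 5.76 ± 0.28 (adjusted p = 5.2e-17), and by 5.89 without those 4 libraries.

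In low nitrogen at 48 h the ratio rose most for mRNA_6849 and mRNA_6850 on scaffold 7 (269969 to 271865 and 271975 to 274105, gap 109 bases), by 3.15 ± 0.28 (limma, adjusted p = 2.2e-10). mRNA_6849 had 22.4, 25.9 and 40.0 CPM with acetate, against 3.08, 3.24 and 2.27 CPM without, and mRNA_6850 had 141, 138 and 135 CPM with acetate, against 124, 124 and 126 CPM without. The ratio fell most for mRNA_1944 and mRNA_1945 on scaffold 12 (572480 to 573870 and 574041 to 575481, gap 170 bases), by 4.01 ± 0.44 (adjusted p = 1.3e-08). mRNA_1944 had 98.5, 57.0 and 43.5 CPM with acetate, against 1353, 1108 and 1214 CPM without, and mRNA_1945 had 31.9, 30.8 and 31.9 CPM with acetate, against 36.7, 39.3 and 39.1 CPM without. In high nitrogen at 48 h mRNA_1944 had 12.5, 11.7 and 118 CPM with acetate, the third value being that of the library that stands apart. Its change there was −4.69 on the log2 scale with that library and −6.65 without the 4 such libraries. Another annotated gene overlaps a member of the pairs of mRNA_6332 and of mRNA_1944.

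**Figure D5:**
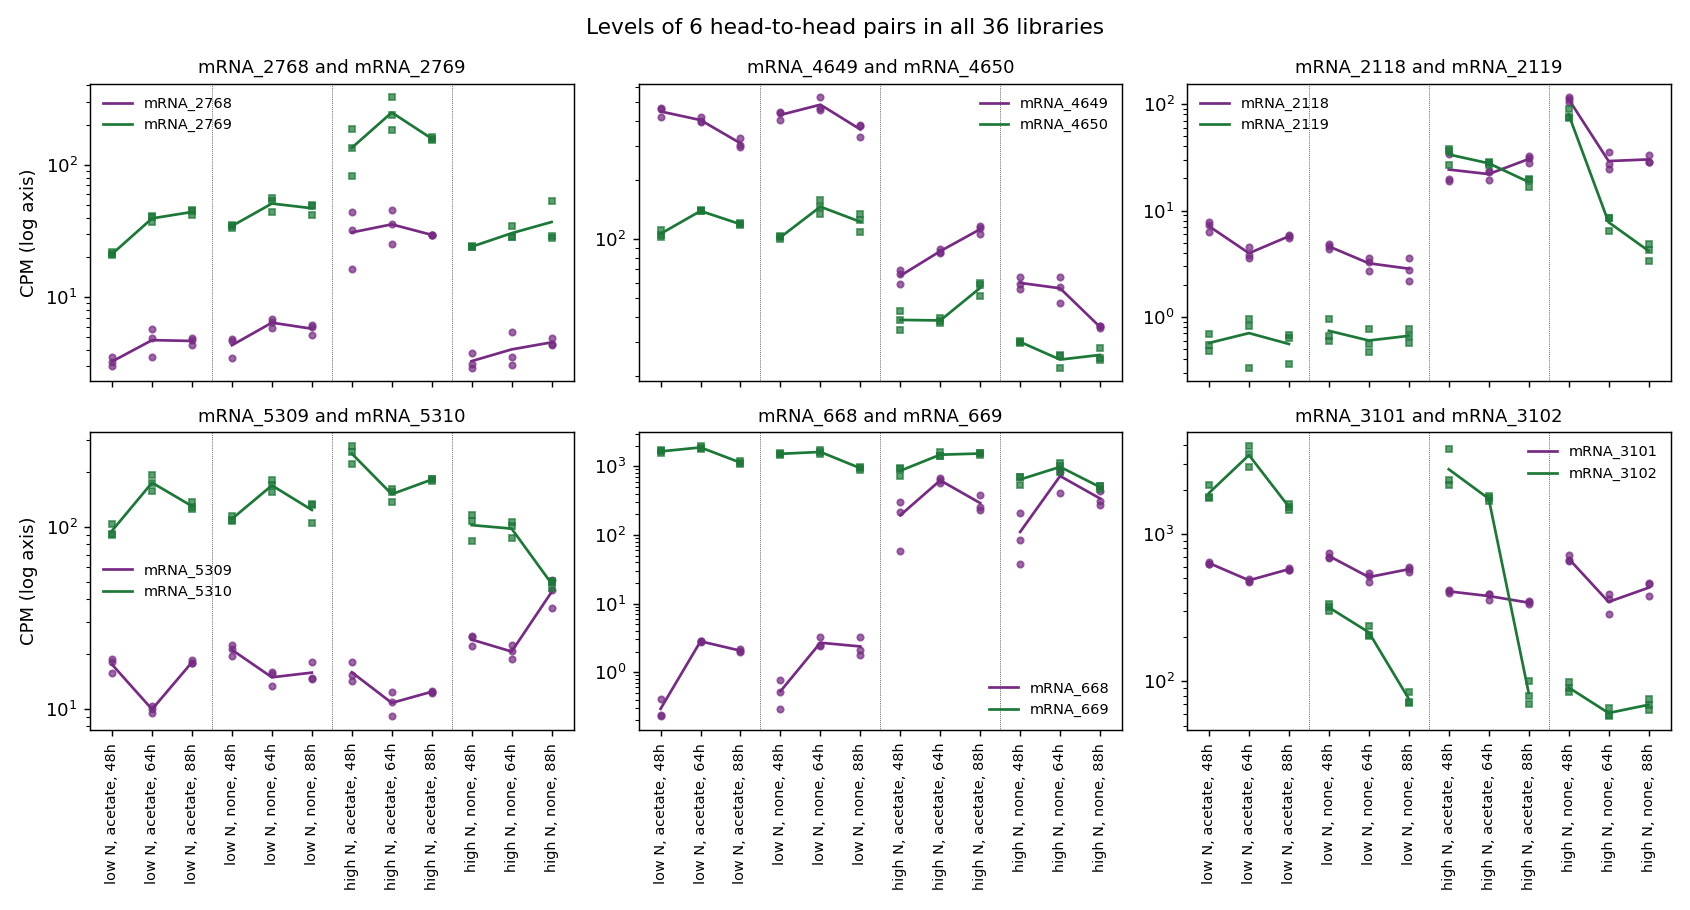
Each panel gives the CPM of both partners of a pair on a log axis, with 1 point per library and lines through the group means of the 3 times in each medium. The upper row shows pairs called together (mRNA_2768 with mRNA_2769, mRNA_4649 with mRNA_4650 and mRNA_2118 with mRNA_2119) and the lower row mRNA_5309 with mRNA_5310, the opposed pair, and 2 pairs in which 1 partner switches (mRNA_668 falls to 2.37 CPM on average in low nitrogen without acetate at 88 h, against 340 CPM in high nitrogen).

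The 2 pairs with the most highly expressed lower partner, taken by the rule on levels, both had a gap of 0 and correlations over 0.8. The median of the 19 pairs with both genes over 200 CPM was 0.235 over the 12 groups, but 0.510 within low and 0.659 within high nitrogen. mRNA_5926 and mRNA_5927 on scaffold 5 (1254899 to 1256609 and 1256610 to 1257754) had mean levels of 1599 and 2120 CPM per kilobase and a correlation of 0.815. At 64 h without acetate mRNA_5926 had 1741, 2048 and 2286 CPM in low nitrogen, against 775, 622 and 688 CPM in high nitrogen, and mRNA_5927 had 1602, 1872 and 1969 CPM in low nitrogen, against 938, 634 and 826 CPM in high nitrogen. At 88 h only mRNA_5926 was called, and the log2 ratio rose by 1.07 (limma, adjusted p = 2.0e-10). mRNA_863 and mRNA_864 on scaffold 1 (2067615 to 2068258 and 2068259 to 2069410) had 2452 and 869 CPM per kilobase and a correlation of 0.926. At 64 h in high nitrogen mRNA_863 had 1789, 1967 and 1946 CPM with acetate, against 473, 231 and 440 CPM without, and mRNA_864 had 1064, 1157 and 1166 CPM with acetate, against 127, 76.1 and 103 CPM without. The acetate and no-acetate libraries did not overlap for either gene. The log2 fold changes were 2.32 for mRNA_863 and 3.47 for mRNA_864, and 2.06 and 3.29 without the 4 libraries that stand apart, 1 of them the second without acetate.

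Closely spaced pairs differed widely among themselves. Among the pairs with a gap of 0, the 3 with the closest coding parts (an order set after the data were seen, since 248 pairs tie) had 48, 67 and 77 bases between them. mRNA_2581 and mRNA_2582 on scaffold 14 correlated at 0.242, mRNA_7504 and mRNA_7505 on scaffold 8 at −0.480, and mRNA_881 and mRNA_882 on scaffold 1 at 0.600. Within low nitrogen these correlations were −0.418, 0.793 and 0.750, and within high nitrogen 0.764, −0.524 and 0.384. In the second pair only mRNA_7504 was called for acetate in high nitrogen at 48 h, with 76.5, 68.4 and 79.5 CPM with acetate, against 28.7, 30.5 and 25.0 CPM without. Its partner mRNA_7505 had 40.0, 43.1 and 60.0 CPM with acetate, against 51.7, 50.4 and 39.6 CPM without, and these ranges overlapped. mRNA_881 and mRNA_882 had the lowest SDs among the named genes, 0.28 and 0.25 in log2 CPM over the 12 groups, and neither was called in any of the 16 comparisons.

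The counting step limits what these pairs can show near their shared ends. The libraries were made with a stranded kit, but the strand setting used in counting is not given in the sources used here. Without strand, a read across the boundary of pairs whose mRNAs meet could not be assigned to a partner by its strand. The median correlation was 0.373 in pairs that meet and 0.369 in the others, 0.367 where no member is overlapped by another annotated gene and 0.379 where a member is.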

How the data were processed

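Whole-number counts per mRNA of the gene catalogue of assembly Rhoto_IFO0880_4 were deposited by the authors for 36 libraries. One sample description calls them CPM, but their totals differ, and they were used as raw counts. Per the submitters' processing notes, the tools were STAR 2.7.10a, Subread 2.0.4 with featureCounts, Trimmomatic 0.39, MultiQC 1.9 and FastQC 0.11.9. Their roles, whether strand was used in counting and how multi-mapped reads were treated are not given in the sources used here. Gene positions came from the deposited annotation, whose format counts from 1.

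Genes passing filterByExpr (8314 of 8490) were fitted in edgeR 4.0.16 (R 4.3.3) with TMM factors and 1 mean per group over all 36 libraries, and tested by the quasi-likelihood F-test with Benjamini-Hochberg adjustment within each of 16 comparisons. Errors given with ± beside a log2 fold change are the change divided by the square root of F, not the error the model itself fits, and may understate the error where counts are low. Ratios were tested with limma 3.58.1 on log2 CPM (prior count 2), adjusted over 8149 adjacent pairs, and their errors are standard errors. Correlations used group means of log2 CPM.

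Pairs were named by a rule fixed with the comparisons: among pairs with both means at least 10 CPM, the 4 highest and 4 lowest correlations where both SDs are at least 0.5, the 2 highest levels of the lower partner, the extreme ratio changes in 4 comparisons, the most frequent shared and opposite calls, and the 3 shortest gaps. Among pairs tied at gap 0 those with the closest coding parts were taken, a choice made after the data were seen, as were the groupings of pairs by layout, level and SD, the comparison with the outer neighbour and the tests of differences between ratio changes. The members, rule and tests were chosen with earlier results of these data known. Alternatives were DESeq2 1.42.0, RLE factors, library totals, other filters, prior counts and gaps, a replicate block, fits of 2 groups only and each library left out. The scripts were tested on simulated counts. No gene lists or sequences could be matched to the catalogue, so none are used.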

Additional observations from a re-analysis of the deposited data

Results flagged for a closer look

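In 4 of the pairs named for a large change of ratio, the change itself differed between the media by a limma test of the difference, adjusted over 8149 adjacent pairs in each of 2 such tests. For nitrogen at 88 h, the change in log2 ratio of mRNA_4005 to mRNA_4006 was 3.97 with acetate and 5.43 without, a difference of −1.46 ± 0.37 (adjusted p = 0.0013). For mRNA_2324 to mRNA_2325 it was 6.91 with acetate and 3.68 without, a difference of 3.23 ± 0.67 (adjusted p = 1.4e-04). For acetate at 48 h, the change for mRNA_6332 to mRNA_6333 was 5.76 in high nitrogen and 0.79 in low nitrogen, a difference of 4.97 ± 0.39 (adjusted p = 1.9e-11). For mRNA_3101 to mRNA_3102 it was −5.62 in high nitrogen and −2.74 in low nitrogen, a difference of −2.88 ± 0.23 (adjusted p = 2.4e-11). These pairs were chosen for the size of 1 of the changes compared, so the differences are not those of an unselected set. Groups of 3 libraries were not tested for outlying values.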

How the results depend on the processing

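Of 496 alternative values for the 22 summary results, 459 stayed within 1.5 times the count or within 1 SD over replicate numbers. The median correlation and its difference from same-strand pairs kept their sign throughout, whereas counts have no sign to reverse. Splits into rises and falls were not among these results, and some changed order with library totals alone, as given above. Moves beyond those limits came from these settings. With adjusted p below 0.05 and no minimum fold, concordant pairs for nitrogen at 48, 64 and 88 h numbered 294, 478 and 505 without acetate and 403, 479 and 508 with acetate. For acetate at those times they were 220, 145 and 235 in low and 350, 338 and 412 in high nitrogen, and for 88 against 48 h they were 471 and 473 in low and 319 and 375 in high nitrogen (without and with acetate). With library totals alone, concordant pairs numbered 162 and 219 for nitrogen without acetate at 64 and 88 h, 9 for acetate in low nitrogen at 64 h, and 45 and 107 for acetate in high nitrogen at 64 and 88 h, and the median correlation and its difference from same-strand pairs were 0.529 and 0.225. With gaps of 0 to 150 bases, which leaves fewer pairs, they were 3 and 3 for acetate in low nitrogen at 48 and 64 h, 28, 15 and 36 in high nitrogen at the 3 times, and 15 and 26 for time in high nitrogen. The median correlation and its difference were 0.483 and 0.281 over the low-nitrogen groups and 0.287 and 0.144 over the high-nitrogen groups. The cause of the other moves was not tested.

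Leaving out each library in turn, concordant pairs for nitrogen at 48, 64 and 88 h ranged over 27 to 29, 86 to 95 and 128 to 147 without acetate, and 61 to 71, 89 to 100 and 113 to 121 with acetate. For acetate they ranged over 7 to 9, 4 to 9 and 8 to 15 in low nitrogen, where the count at 64 h was 9, against 5 with all libraries, without replicate 2 or replicate 3 with acetate, and 47 to 56, 22 to 31 and 54 to 63 in high nitrogen. For time they ranged over 82 to 100, 107 to 115, 20 to 25 and 45 to 54. In 32 of 36 such fits edgeR took another library as the TMM reference, and 8321 to 8326 genes were tested, so the scaling moved too, and 3 of the 16 counts with all libraries lay above their range. With the genes and factors of all libraries kept (added after seeing the data), none of the 16 lay outside: nitrogen without acetate at 64 h gave 94 to 103 pairs and time in low nitrogen 88 to 105 without and 117 to 126 with acetate. The lowest count for acetate in low nitrogen at 64 h was then 3, without replicate 1 with acetate. The median correlation ranged from 0.366 to 0.387 and its difference from 0.191 to 0.210. Ratio calls ranged over 399 to 429, 412 to 432, 103 to 117 and 276 to 311. Without the 4 libraries that stand apart (chosen after seeing the data) all 22 results stayed within 1.5 times the count or 1 SD, concordant pairs for nitrogen without acetate at 64 h numbering 102, with a difference of medians of 0.201.

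No pairing of libraries by replicate number was found: in 0 of 16 comparisons were all 3 correlations of same-number deviations above 0.1. They ranged from −0.366 to 0.226, and in 18 of 48 checks a library correlated best with its own number. With 3 libraries per group this cannot exclude that libraries share a colony or flask. With a replicate block, concordant pairs for nitrogen at 88 h without acetate numbered 140 and ratio calls 410, and none of 20 counts moved by over 1.5 times. Of 236 called fold changes of named genes, 28 fell below the threshold with library totals, 2 with DESeq2 and 4 without the 4 libraries, and none reversed. Over the fits with 1 library left out, 42 values fell below the threshold, 1374 kept the call and none reversed. All 104 alternative ratio changes of named pairs kept their call and direction, and all 362 alternative correlations kept their sign.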
